A study of Homo sapiens with 6 samples.

Results

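The 10 genes that encode core subunits of the SIN3 complex were followed through chromatin accessibility data of breast cancer cells with and without SAP30, one of those subunits. The genes were SIN3A, SIN3B, SAP30, SAP30L, SAP130, SAP18, SUDS3, HDAC1, HDAC2 and RBBP4, chosen by name as complex members, out of 20163 protein-coding genes on chromosomes 1 to 22, X and Y. Accessibility was measured by ATAC-seq, a method that inserts sequencing adapters into open DNA with a transposase. MDA-MB-231 is an established line of human triple-negative breast cancer cells and was grown in DMEM with fetal bovine serum. There were 3 libraries of Parental cells, which carry no edit, and 3 libraries of SAP30-KO1 cells, in which SAP30 was disrupted with CRISPR/Cas9 and a single guide RNA. Per the study's methods, a knockout line was a mixture of several selected knockout cells, SAP30-KO1 was the only knockout line in these libraries, and the libraries were not stated to come from separate cultures. Each library was deposited as its own list of peak summits, the position of highest signal in a peak, each scored by the −log10 q value of its peak. The 3 Parental lists held 36694, 30477 and 33552 summits, and the 3 SAP30-KO1 lists held 29762, 40650 and 34262. Read counts are not part of such lists, and the depth behind a summit is unknown.

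The SIN3 complex is best known as a corepressor, and the study also reports gene activation by it. SIN3A and SIN3B do not bind DNA themselves, and the study reports that SAP30 is needed to bring them to chromatin. SIN3A and SIN3B are alternative scaffolds with paired amphipathic helix domains. HDAC1 and HDAC2 are the catalytic subunits that remove acetyl groups from histones, and RBBP4 is a WD40 protein that binds histones. SAP30 and its paralog SAP30L, SAP18, SAP130 and SUDS3 are further core subunits, without deacetylase activity of their own, that contact the scaffold, the deacetylases or both. HDAC1, HDAC2 and RBBP4 also serve in other complexes, among them NuRD.

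To compare lists that have no common scale, each summit was given its percentile rank within its own list, from 0 to 100, and a gene without a summit in a library was given 0. The promoter rank of a gene was that of its highest summit within 1 kb of any annotated start site. In a bulk assay, fewer cells with an open site and a less open site in each cell cannot be told apart. The promoters of VIM, CD44 and CAV1, which mark mesenchymal-like cells of this kind, had a summit in all 6 libraries, and that of AXL had one in 3. Of the luminal and epithelial markers, CDH1 had none, ESR1 and PGR had 1 library each, and GATA3 and EPCAM had 5 each. The leukocyte gene PTPRC had none, and the endothelial gene PECAM1 was not analysed here. None of the markers had ranks without overlap between the groups, against 10.6% of all promoters with a summit in any library.

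The promoters of SIN3 subunit genes were built mostly of CpG-rich sequence. In windows from 250 bases upstream to 50 bases downstream of the start site of the canonical transcript, the median GC content was 66.8% for the 10 genes and 63.8% for 19862 protein-coding promoters, and the median number of CpG dinucleotides was 28 against 23. SAP18 stood apart with 39.9% GC and 9 CpG, at percentile 5.03 of all promoters for GC content. This held for the window at its canonical start site, whereas its summits lay at a median 434 bp downstream, near another SAP18 start. The 201 bases around that median summit held 63.7% GC and 20 CpG. RBBP4 held the most CpG dinucleotides of the 10, 42, at percentile 91.1. Letters were searched on both strands for the GC box of Sp1-like factors, GGGCGG, which was present in 8 of 10 windows, all but those of HDAC2 and SAP18, and in 61.5% of all promoters. The CCAAT box was present in 6 of 10 and in 36.0% of all promoters. The core letters bound by ETS factors, CCGGAAG, were found at SUDS3 alone and in 14.2% of all promoters. The NRF1 letters GCATGCGC, present in 4.27% of all promoters, were found at SIN3B alone among the 10 genes. The same held for the TATA box letters TATAAA, present in 9.64% of all promoters. The YY1 letters AAGATGGCG, present in 2.85%, were found at none of the 10. The matches are a description of letters and were not tested as binding sites.

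The 150 bases just upstream of the canonical start site (for RBBP4, ending 67 bases before it) are shown 5′ to 3′ on the gene's strand, from GRCh37, for 5 promoters on which the results below turn. SAP30 is the gene that was edited, SAP30L had the highest mean rank over the 6 libraries, SIN3B had no summit at this start site, SUDS3 had the lowest mean rank, and RBBP4 was the 1 gene of 10 whose ranks did not overlap between the groups, against 10.6% of all promoters. Capitals mark matches to the letters searched, on either strand. At SIN3B the run GCGCATGCGC holds a match on each strand, which overlap.
SAP30, chr4:174291955-174292104, plus strand: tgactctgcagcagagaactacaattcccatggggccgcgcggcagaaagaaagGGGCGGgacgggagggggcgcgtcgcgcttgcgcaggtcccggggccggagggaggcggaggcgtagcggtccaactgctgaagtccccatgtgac
SAP30L, chr5:153825407-153825556, plus strand: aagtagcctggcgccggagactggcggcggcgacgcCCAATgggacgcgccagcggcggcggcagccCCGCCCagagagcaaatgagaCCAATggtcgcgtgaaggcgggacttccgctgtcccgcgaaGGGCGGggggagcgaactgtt
SIN3B, chr19:16940059-16940208, plus strand: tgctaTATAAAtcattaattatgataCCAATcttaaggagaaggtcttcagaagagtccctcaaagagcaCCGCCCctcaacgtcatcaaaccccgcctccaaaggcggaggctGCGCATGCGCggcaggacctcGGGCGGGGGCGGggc
SUDS3, chr12:118814210-118814359, plus strand: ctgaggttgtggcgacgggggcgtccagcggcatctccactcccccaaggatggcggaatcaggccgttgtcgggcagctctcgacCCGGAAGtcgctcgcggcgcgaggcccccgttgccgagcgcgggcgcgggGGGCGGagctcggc
RBBP4, chr1:33116593-33116742, plus strand: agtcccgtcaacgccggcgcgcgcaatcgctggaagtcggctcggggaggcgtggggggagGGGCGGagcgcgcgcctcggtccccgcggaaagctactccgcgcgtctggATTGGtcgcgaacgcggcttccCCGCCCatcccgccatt

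Promoter accessibility differed widely between genes of the one complex. SAP30L, SAP30, SAP130, SIN3B, HDAC2 and SIN3A had a promoter summit in all 6 libraries, RBBP4 in 5, HDAC1 and SAP18 in 3, and SUDS3 in 1. The SIN3B summits lay near an internal start site, 47.9 kb downstream of the canonical one. Annotated start sites numbered from 2 for SAP30 to 19 for SIN3A, and the ranks were not adjusted for this. Among all protein-coding genes, 34.5% had a promoter summit in all 6 libraries and 62.3% in at least 1. The mean rank over the 6 libraries ran from 92.2 for SAP30L through 73.6 for SAP30, 73.2 for SAP130, 64.2 for SIN3B, 56.8 for HDAC2, 56.6 for SIN3A, 24.6 for RBBP4, 15.3 for HDAC1 and 7.63 for SAP18 to 3.24 for SUDS3. In this order all 9 pairs of neighbours had overlapping ranks over the 6 libraries. Compared within each library, no pair of neighbours kept its order in every library, so the order of adjacent genes is not set by these data. SAP30L stood above the lower part of the order, as its lowest library exceeded every library of 6 genes, HDAC2, SIN3A, RBBP4, HDAC1, SAP18 and SUDS3. The range of a gene over the 6 libraries had a median of 42.8 percentile points for the 10 genes and 39.2 for all 12564 promoters with a summit in any library.

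**Figure D1:**
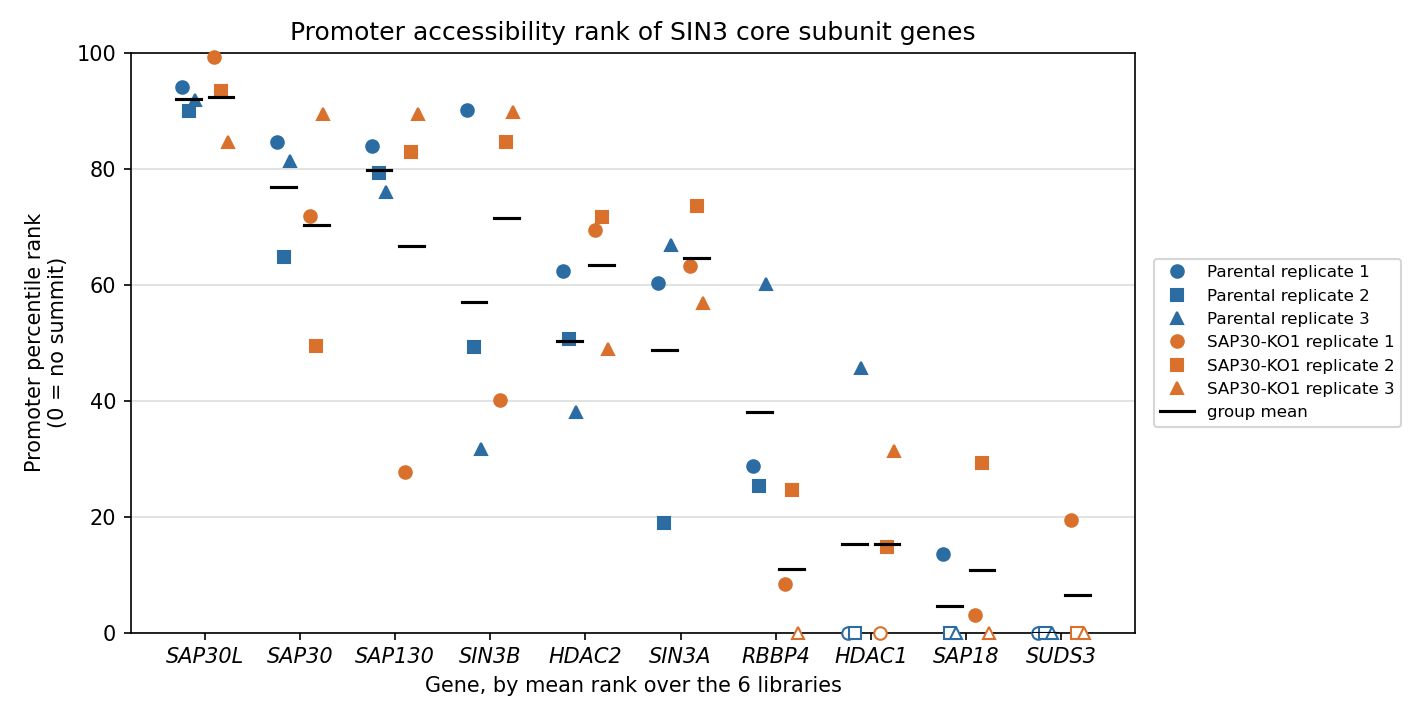
Promoter percentile rank (vertical axis, 0 to 100, with open symbols at 0 for no summit) of the 10 SIN3 core subunit genes, ordered by mean rank over the 6 libraries, in Parental (blue) and SAP30-KO1 (orange) libraries. Symbols mark replicates and black lines group means, and RBBP4 is the one gene whose blue points all lie above its orange points, by less than 1 percentile point at the closest pair.

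SAP30 binds SIN3A, is also described in the study as interacting with HDAC1, and was the target of the knockout. The gene lies at chr4:174291120-174298683 on the plus strand. Its promoter ranks were 84.7, 64.8 and 81.3 in Parental and 71.8, 49.5 and 89.5 in SAP30-KO1 libraries. SAP30-KO1 replicate 3 was the highest of the 6 libraries and SAP30-KO1 replicate 2 the lowest, so that the Parental range lay inside the SAP30-KO1 range. The group means were 76.9 ± 10.6 and 70.3 ± 20.1 (SD, n = 3 each), a difference of −6.66 with an SE of 13.1 (exact permutation test, two-sided, p = 0.7). Without SAP30-KO1 replicate 2 the difference was 3.73. Summit lists carry no base sequence, so they do not check the edit itself. The 6 promoter summits lay within 132 bp of each other around a median 27 bp downstream of the canonical start site, in the first exon. A second site, 1253 bp upstream of that start and 268 bp from another SAP30 start site, was weaker. It had ranks of 26.9, 0 and 0 in Parental and 20.7, 47.9 and 0 in SAP30-KO1 libraries, and lay near the start of the divergent transcript SAP30-DT. The 3 protein-coding genes whose promoter ranks were most like those of SAP30 over the 6 libraries were E2F5, MRPS36 and RBM14, with mean absolute differences of 4.63, 4.68 and 5.29 percentile points.

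SAP30L, the paralog of SAP30 at chr5:153825557-153840613 on the plus strand, had the highest mean promoter rank of the 10, although in SAP30-KO1 replicate 3 it lay below SAP30, SAP130 and SIN3B. Its ranks were 94.2, 90.0 and 91.9 in Parental and 99.3, 93.5 and 84.6 in SAP30-KO1 libraries. The lowest and the highest library were both SAP30-KO1, and the means of 92.0 ± 2.08 and 92.4 ± 7.39 differed by 0.418 with an SE of 4.43 (exact permutation test, two-sided, p = 1.0), and by −2.99 without SAP30-KO1 replicate 1. The summits lay 257 bp upstream of the start site at the median, in the stretch that SAP30L shares with the start of SAP30L-AS1. A single site was found in the whole window of this gene.

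The scaffold gene SIN3A, at chr15:75661720-75748183 on the minus strand, had a promoter summit in every library 306 bp upstream of its canonical start site at the median. Its ranks were 60.4, 18.9 and 66.9 in Parental and 63.2, 73.6 and 56.8 in SAP30-KO1 libraries. Parental replicate 2 was far below the other 5 libraries, which overlapped. The difference of 15.8 had an SE of 15.8 (exact permutation test, two-sided, p = 0.5), and was 0.891 without Parental replicate 2. A weak second site 670 bp downstream of the start site had a summit in SAP30-KO1 replicates 1 and 3 alone, with ranks of 4.10 and 34.4.

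SIN3B, the alternative scaffold at chr19:16940209-16991164 on the plus strand, had no summit within 1 kb of its canonical start site in any library. The site that gave its promoter rank lay 47.9 kb downstream, 111 bp from an internal start site near the 3′ end of the gene, in an exon. Its ranks were 90.1, 49.2 and 31.6 in Parental and 40.1, 84.7 and 89.8 in SAP30-KO1 libraries. Both groups had high and low libraries, and the difference of 14.5 had an SE of 23.4 (exact permutation test, two-sided, p = 0.7). Leaving out Parental replicate 3 gave 1.85, and leaving out Parental replicate 1 gave 31.1. The site of highest mean rank outside promoters lay 6.2 kb upstream of the canonical start. It had ranks of 49.98, 19.9 and 24.9 in Parental and of 0, 0 and 34.1 in SAP30-KO1 libraries, which overlapped. With the canonical start site alone, a setting chosen after the data were seen, 5 of the 10 genes had a promoter summit in all 6 libraries and 9 in at least 1, against 30.6% and 57.4% of 19881 genes.

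The 2 deacetylase genes had mean ranks of 15.3 for HDAC1 and 56.8 for HDAC2, with overlapping ranges over the libraries. HDAC1, at chr1:32757684-32799236 on the plus strand, had ranks of 0, 0 and 45.6 in Parental and 0, 14.7 and 31.4 in SAP30-KO1 libraries, with a summit in 3 of the 6 libraries. The highest library was Parental replicate 3, and the difference of 0.149 had an SE of 17.7 (exact permutation test, two-sided, p = 1.0). Leaving out Parental replicate 3 gave 15.4, and leaving out SAP30-KO1 replicate 3 gave −7.86. An intron site 29.9 kb downstream of the HDAC1 start was called in more libraries than the promoter. It had ranks of 8.43, 7.34 and 63.6 in Parental and 0, 38.2 and 37.8 in SAP30-KO1 libraries. As at the promoter, Parental replicate 3 was highest and SAP30-KO1 replicate 1 had no summit.

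HDAC2, at chr6:114254192-114332472 on the minus strand, had promoter ranks of 62.4, 50.7 and 38.0 in Parental and 69.4, 71.7 and 48.8 in SAP30-KO1 libraries. SAP30-KO1 replicates 1 and 2 were above all Parental libraries, and replicate 3 lay within their range. The means were 50.4 ± 12.2 and 63.3 ± 12.6 (SD, n = 3 each), a difference of 13.0 with an SE of 10.1 (exact permutation test, two-sided, p = 0.3). Without SAP30-KO1 replicate 3 the ranks of the groups did not overlap, with a difference of 20.2, as was so for 18.5% of all promoters with that library left out. The promoter summits lay 197 bp upstream of the canonical start site at the median, where HDAC2-AS2 also starts.

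SAP130, at chr2:128698791-128785694 on the minus strand, had the broadest promoter site, with 13 summits of the 6 libraries over 1100 bp. Its ranks were 84.0, 79.3 and 76.0 in Parental and 27.7, 82.8 and 89.5 in SAP30-KO1 libraries. SAP30-KO1 replicate 1 stood far below the others, and the difference of −13.1, with an SE of 19.7, was 6.42 without that library (exact permutation test, two-sided, p = 0.9 with all libraries). SAP130 and SAP30 had nearly the same mean rank over the 6 libraries.

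SAP18 and SUDS3 had the lowest mean promoter ranks of the 10, with ranges that overlapped that of HDAC1. SAP18, at chr13:21714258-21723236 on the plus strand, also serves in RNA-processing assemblies, and had ranks of 13.6, 0 and 0 in Parental and 2.97, 29.2 and 0 in SAP30-KO1 libraries. The difference of 6.19 had an SE of 10.3 (exact permutation test, two-sided, p = 0.7) and was −3.05 without SAP30-KO1 replicate 2. Its summits lay 434 bp downstream of the canonical start site at the median, in an exon and 25 bp from another SAP18 start site. SUDS3, at chr12:118814360-118855838 on the plus strand, helps hold HDAC1 on the scaffold. Its promoter had a summit in SAP30-KO1 replicate 1 alone, with a rank of 19.4 (exact permutation test, two-sided, p = 1.0), and no summit was left without that library. Within the window of SUDS3 the promoter of the neighbouring gene TAOK3, 3.5 kb upstream, was accessible in all 6 libraries, with ranks of 66.2, 95.8 and 52.0 in Parental and 57.3, 86.6 and 93.2 in SAP30-KO1 libraries.

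RBBP4, at chr1:33116743-33151812 on the plus strand, was the gene whose promoter ranks did not overlap between the groups. The ranks were 28.8, 25.3 and 60.2 in Parental and 8.45, 24.6 and 0 in SAP30-KO1 libraries. Every Parental library was above every SAP30-KO1 library, but Parental replicate 2 and SAP30-KO1 replicate 2 were less than 1 percentile point apart, and SAP30-KO1 replicate 3 had no summit. The group means were 38.1 ± 19.2 and 11.0 ± 12.5 (SD, n = 3 each), and the difference of −27.1 had an SE of 13.2 (exact permutation test, two-sided, with p = 0.1 as the lowest value that 3 against 3 libraries allow). After Benjamini-Hochberg adjustment over all 12564 promoters this exact p was 0.945, and the exact test could not pass with 3 libraries a group. With limma the adjusted p was 0.793, so the difference did not pass there. The call also rested on the ranking. The raw scores of the peak caller were 4.19, 4.41 and 6.46 in Parental and 3.23 and 4.55 in SAP30-KO1 replicates 1 and 2, which overlapped, with an exact p of 0.3 on the log2 scale. With summits at a q value of 0.0001 alone the ranks overlapped too, and the difference was −16.4. Without Parental replicate 3 it was −16.0. On the short arm of chromosome 1, where RBBP4 and HDAC1 lie, the median shift of sites with a summit in all 6 libraries was 5.28 percentile points towards SAP30-KO1, and RBBP4 ranked within its own arm differed by −27.5. The summits spanned 503 bp around the start site, a stretch shared with the divergent gene ZBTB8OS.

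Read across the complex, 1 of 10 genes had promoter ranks that did not overlap between the groups, RBBP4, against 10.6% of all promoters with a summit in any library. The share of all promoters whose ranks were lower in SAP30-KO1 without overlap was 4.58%, and of those higher 6.01%. The difference of means was above 0 for 7 genes and below 0 for 3, and it was above 0 at 53.1% of all promoters. The median difference was 3.31 percentile points for the 10 genes and 0.678 for all promoters. RBBP4 lay at percentile 4.19 of all differences and SIN3A, the gene with the largest positive difference, at percentile 84.6. The mean rank over the 10 genes was 51.8, 37.8 and 49.2 in Parental and 40.2, 52.4 and 49.0 in SAP30-KO1 libraries. The group means of 46.3 ± 7.44 and 47.2 ± 6.29 (SD, n = 3 each) differed by 0.975, less than the spread between replicates, and by −3.25 without Parental replicate 2 or −1.62 without SAP30-KO1 replicate 2. Over all promoters, no difference passed an adjusted p of 0.05 in the exact test, which cannot give one with 3 libraries a group, and 1330 had its smallest p of 0.1. With limma 1 promoter of 12564 passed (0.00796%), TENM2, named after its value was seen and not one of the 10 genes, and 849 had an unadjusted p under 0.05.

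**Figure D2:**
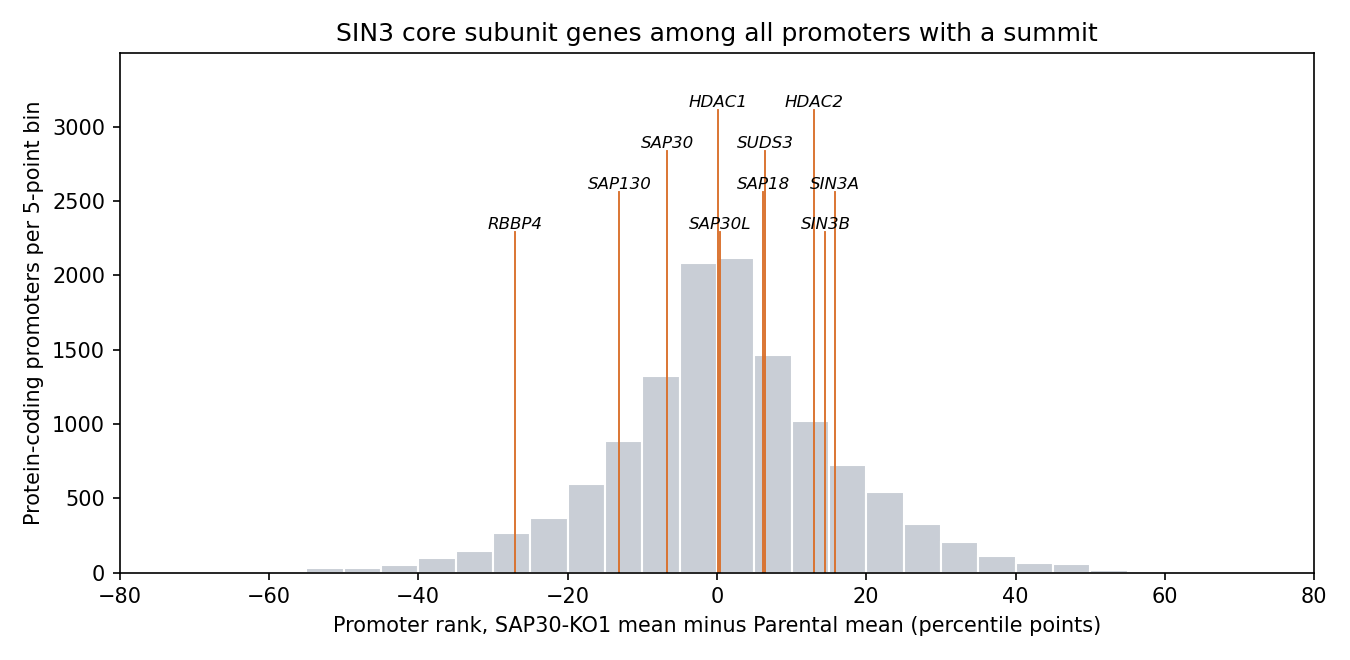
Number of protein-coding promoters (vertical axis) by the difference in promoter rank, SAP30-KO1 mean minus Parental mean (horizontal axis, percentile points, 5-point bins), over the 12564 promoters with a summit in any library. Vertical lines mark the 10 SIN3 core subunit genes, which run from −27.1 for RBBP4 to 15.8 for SIN3A inside the distribution of all promoters.

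Windows from 10 kb upstream of each gene to its end were then searched for other open sites. The 10 windows held 19, 15 and 18 summits in Parental and 18, 22 and 20 in SAP30-KO1 libraries. The means of 17.3 ± 2.08 and 20 ± 2 (SD, n = 3 each) differed by 2.67 (exact permutation test, two-sided, p = 0.3). The 112 summits fell into 23 sites when summits were widened by 250 bp on each side and merged over the libraries. Of these, 13 were promoter sites, 7 lay in introns and 3 upstream. A summit in all 6 libraries was found at 9 sites, or 39.1%, against 28.9% of 56419 sites in the genome. A summit in 1 library alone was found at 3 sites, against 28.5% of all sites. These shares compare unlike mixes, as at least 39507 of the genome's sites lay away from any start site. Outside the genes' own promoters, sites were found at SIN3B, HDAC1, HDAC2 and SUDS3, and the long SIN3A and SAP130 genes had none. The SUDS3 site was the TAOK3 promoter, and the HDAC2 sites 23.9 and 24.9 kb upstream lay within 1 kb of an HDAC2-AS2 start.

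**Figure D3:**
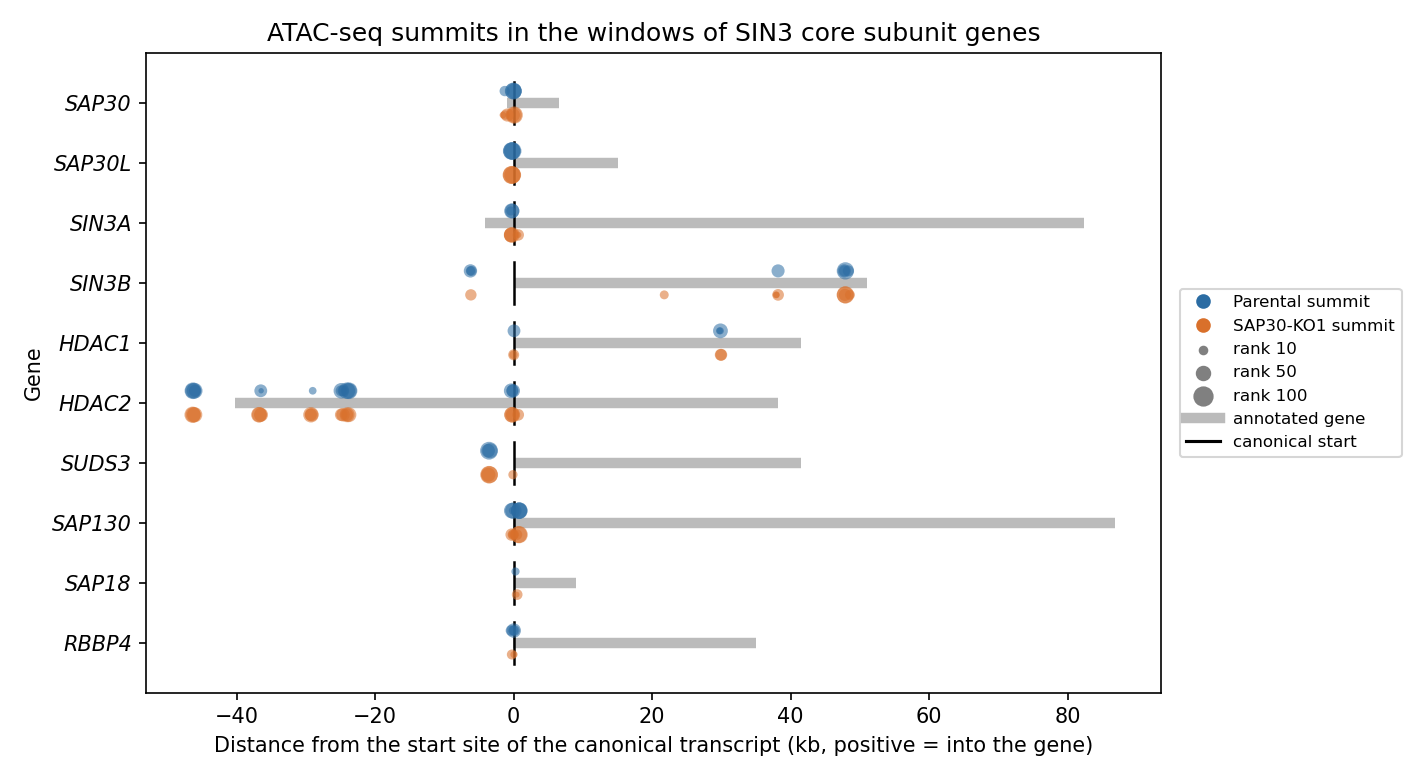
Summits of the Parental (blue, above) and SAP30-KO1 (orange, below) libraries by distance from the start site of the canonical transcript (horizontal axis, kb, positive into the gene), for the 10 genes (vertical axis). Point area grows with percentile rank, grey bars are the annotated genes and black ticks the canonical start. HDAC2 holds 5 of the 10 sites outside the genes' own promoters.

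The HDAC2 locus held the sites whose ranks moved most. Some annotated HDAC2 transcripts start far upstream of the canonical one, and the stretch between held 4 intron sites, with a further site upstream of the whole gene. An intron site 29.2 kb upstream of the canonical start had ranks of 10.9, 0 and 0 in Parental and 49.6, 70.1 and 40.8 in SAP30-KO1 libraries. A summit was present in every SAP30-KO1 library and in Parental replicate 1 alone, and the groups did not overlap. The means were 3.64 ± 6.30 and 53.5 ± 15.1 (SD, n = 3 each), a difference of 49.9 percentile points. A second intron site, 36.5 kb upstream, had ranks of 0, 0.994 and 45.6 in Parental and 71.0, 66.3 and 55.6 in SAP30-KO1 libraries. All SAP30-KO1 libraries were again above all Parental libraries, with means of 64.3 ± 7.88 and 15.5 ± 26.1 and a difference of 48.7. For both sites the exact permutation p was 0.1, the smallest possible with 3 against 3 libraries, and 0.988 after adjustment over all 56419 sites. The raw scores, from which the ranks were made, did not overlap at either site. The highest Parental score was 3.04 at the first site, against 5.42 to 9.18 in SAP30-KO1 libraries. At the second it was 5.22, against 6.66 to 8.54. Since the sites were picked by rank, this shows only that the calls did not rest on the ranking, and is not further support. Over all sites, not picked by rank, raw scores did not overlap at 9.99%, with 6.97% higher in SAP30-KO1 and 3.02% lower.

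The 201 bases around the median summit of these 2 sites are shown because they are the stretches of the 10 windows that were higher in SAP30-KO1 without overlap, on the plus strand of GRCh37. Capitals mark matches to TGANTCA (AP-1) and TGTGGT (RUNX) on either strand.
Site 29.2 kb upstream, chr6:114321416-114321616, plus strand: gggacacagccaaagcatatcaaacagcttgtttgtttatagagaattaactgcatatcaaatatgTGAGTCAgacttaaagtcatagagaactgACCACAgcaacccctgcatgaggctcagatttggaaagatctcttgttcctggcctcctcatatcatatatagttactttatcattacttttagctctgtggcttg
Site 36.5 kb upstream, chr6:114328711-114328911, plus strand: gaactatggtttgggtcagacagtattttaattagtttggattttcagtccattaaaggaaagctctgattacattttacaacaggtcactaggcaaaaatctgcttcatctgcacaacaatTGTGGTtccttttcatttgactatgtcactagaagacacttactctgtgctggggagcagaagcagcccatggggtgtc

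Both stretches were without a CpG dinucleotide, unlike the promoters above. TGANTCA was present at the first and not the second, at 2 of 7 member sites away from any start site and in 28.2% of 39507 such sites in the genome. TGTGGT was present at both, at 3 of the 7 member sites and in 18.8% of all. It was also present at the HDAC2 intron sites 23.9 and 24.9 kb upstream, which lie near an HDAC2-AS2 start and are outside the 7. The site at 23.9 kb was lower in SAP30-KO1, and a link between these letters and the direction of change was not tested. GGAATG (TEAD) was present at 2 of the 7 and in 17.4% of all, and a core of the CTCF motif at none and in 2.54%.

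Of the other HDAC2 sites, the promoter sites had higher means in SAP30-KO1, with overlapping ranks, and the 3 sites below had lower means. The intron site 23.9 kb upstream, near a start site of HDAC2-AS2, had ranks of 66.6, 81.4 and 83.4 in Parental and 63.4, 44.8 and 65.1 in SAP30-KO1 libraries. The Parental libraries were higher without overlap, by 19.4 percentile points in the means of 77.2 ± 9.21 and 57.8 ± 11.3 (exact permutation test, two-sided, n = 3 each, p = 0.1), but Parental replicate 1 and SAP30-KO1 replicate 3 were less than 2 points apart. With the same number of best summits in each list its ranks overlapped (exact p = 0.3). On raw scores the groups overlapped, with 7.43 in Parental replicate 1 and 7.76 in SAP30-KO1 replicate 3. The summits of this site fell into 2 clumps, near 23.8 kb in Parental replicates 1 and 3 and SAP30-KO1 replicate 1 and near 24.1 kb in the others, and windows of 100 bp on each side did not join them. The site 24.9 kb upstream had ranks of 31.2, 71.3 and 30.7 in Parental and 0, 50.7 and 42.8 in SAP30-KO1 libraries, which overlapped. The site of highest mean rank outside the HDAC2 promoter, 46.3 kb upstream of the canonical start and beyond the annotated gene, had a summit in every library. Its ranks were 73.7, 66.9 and 82.8 in Parental and 68.2, 78.6 and 68.2 in SAP30-KO1 libraries, a difference of −2.82 (exact permutation test, two-sided, p = 0.7). The median shift of the long arm of chromosome 6 was 1.38 percentile points towards SAP30-KO1.

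**Figure D4:**
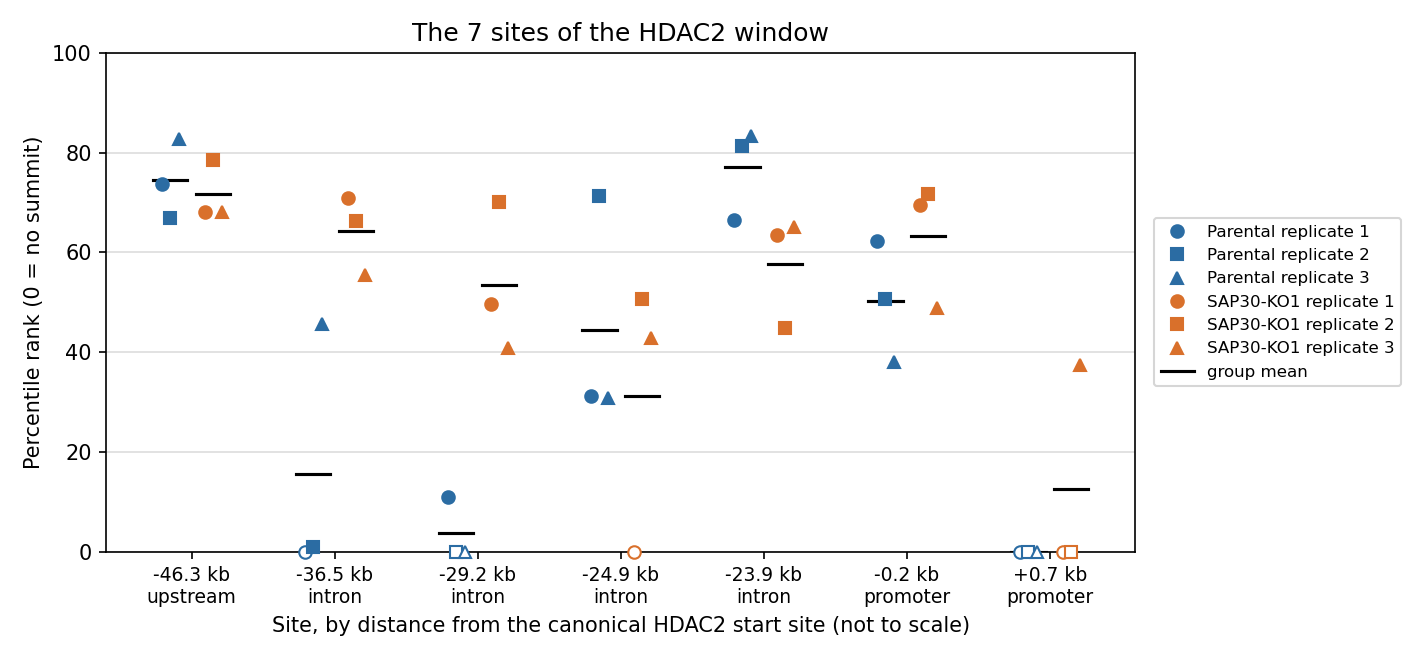
Percentile rank (vertical axis, 0 for no summit, open symbols) of the 7 sites in the HDAC2 window, ordered by distance from the canonical start site (horizontal axis, not to scale), in Parental (blue) and SAP30-KO1 (orange) libraries, with black lines for group means. At 29.2 and 36.5 kb upstream all orange points lie above all blue points, and at 23.9 kb upstream all blue points lie above all orange points.

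Over the 23 sites, 4 had ranks that did not overlap between the groups, 2 higher in SAP30-KO1 and 2 lower, against 10.1% of all sites in the genome, with 5.86% higher and 4.26% lower. These were the 3 HDAC2 intron sites described above and the RBBP4 promoter. Sites of 1 locus share their surroundings and are not independent of each other. No site was present in all 3 libraries of one group and absent from the other, which held for 2.31% of all sites (0.876% in Parental alone and 1.43% in SAP30-KO1 alone).

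Genes of the same pathway outside the 10 were read from lists of further complex members. Of 12 other SIN3-associated genes (RBBP7, ING1, ING2, BRMS1, BRMS1L, ARID4A, ARID4B, SINHCAF, PHF12, MORF4L1, KDM5A and SAP25), 11 had a promoter summit in at least 1 library and 5 in all 6. None had ranks without overlap, none passed the adjusted test, and their median difference was 1.003 percentile points. Of 12 partners of HDAC1 and HDAC2 in the NuRD and CoREST complexes (MTA1, MTA2, MTA3, CHD3, CHD4, MBD2, MBD3, GATAD2A, GATAD2B, RCOR1, RCOR2 and KDM1A), 11 had a summit in at least 1 library and 5 in all 6. None had ranks without overlap, against the same 10.6% of all promoters. Their median difference was 9.91, against 0.678 for all promoters, and was not tested. Single differences ran from −23.1 for KDM1A to 32.4 for CHD3, which had a summit in 2 libraries. Of the other class I deacetylase genes, HDAC3 had a promoter summit in 5 libraries with overlapping ranks, and HDAC8 had none.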

How the data were processed

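ATAC-seq was performed by the authors on 3 Parental and 3 SAP30-KO1 libraries of MDA-MB-231 cells, which were grouped by their labels. Per the labels and the methods, single-end reads were checked with FastQC 0.11.2, trimmed with Trim Galore 0.4.5, aligned to hg19 with Bowtie2 2.3.3.1, freed of duplicates with Picard, and peaks were called with MACS2 2.1.0 at a q value of 0.05. Whether reads were shifted for the transposase was not given in the sources used here; the shift is a few bases and small against the windows used. The deposited values are −log10 q values at each summit, 1 list per library. The unit was read from the values, since the lowest scores were 1.31 to 1.33 and the threshold corresponds to 1.30. Read counts were not used here, so depth is unknown and no counting interval could be given.

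Percentile ranks within each list were computed with Python 3.11.15. Annotation and sequence were GENCODE release 44 mapped to GRCh37 and the GRCh37 genome, and no summit lay past the end of any of 24 chromosomes. Promoters reached 1 kb from any start site and windows 10 kb upstream. Sites were summits widened by 250 bp on each side and merged. Groups were compared by exact permutation over 20 assignments with Benjamini-Hochberg adjustment over all promoters or sites, and by limma 3.58.1 (R 4.3.3) across all promoters. Called means that the ranges of 3 and 3 libraries did not overlap. The fits were tested on simulated data. The named genes were all 10 members, their sites outside promoters that were called or, per gene, of highest mean rank, and listed genes that were called. The members, lists and tests were chosen with earlier results of these data known, and the canonical start site and the raw scores of sites were added as settings after the data were seen. The p-values measure the spread between these libraries, which may be technical. The guide RNA, protein sequences and the study's other assays were not analysed here.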

Additional observations from a re-analysis of the deposited data

How the results depend on the processing

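Depth is unknown, 3 libraries a group cannot reach an exact p under 0.1, and a missing summit counts as 0, so the ranks of weak promoters rest on single libraries. Scores at a q value of 0.01, other promoter widths (500 bp, 2.5 kb), the nearest summit, ranks within a chromosome arm and the canonical start site left the direction of each single gene measured and the count of 1 gene without overlap as they were; SIN3B had no value with the canonical start site. Over these settings 10.1% to 10.9% of all promoters had ranks without overlap. At a q value of 0.0001 no core gene was called (0), against 10.7% of all promoters, and HDAC1 turned to −3.85. There 2 sites were called, against 10.8% of all sites, and 1 site was group-specific, against 2.64%. When lists were cut to equal numbers of their best summits, 1 site was group-specific, against 2.52% of all sites. Called sites numbered 3, without the HDAC2 site at 23.9 kb (exact permutation p of 0.3), against 11.1% of all sites. With these lists HDAC1 turned to −5.90, SAP30L to −0.278 and the mean over the 10 genes to −0.474. With the canonical start site that mean was −0.479. With group-specific defined as at least 2 libraries of one group and none of the other, 1 site was, against 8.95% of all sites. On the log2 scale of the raw scores, added after the data were seen, 0 genes and 2 sites were called. The shares there were 10.6% of all promoters and 9.99% of all sites. With summits widened by 100 bp the HDAC2 site at 23.9 kb gave no value. With the replicate block limma called 0 promoters, against 1 without it, and the adjusted p of RBBP4 was 0.840. The block changed no other call. Correlations of deviations between libraries of the same number were −0.0281, −0.0288 and 0.0161, against −0.00970 to 0.0387 for different numbers. Such values cannot tell whether libraries of the same number were handled together.

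Leaving out 1 library at a time, the genes without overlap numbered 1 to 2 (2 without SAP30-KO1 replicate 3, which added HDAC2). The promoters of the genome without overlap numbered 2293 to 2601, or 18.5% to 20.9%. Sites without overlap numbered 4 to 6, against 16.7% to 18.5% of all sites. The group-specific sites numbered 0 to 2 (2 without Parental replicate 1, 1 without SAP30-KO1 replicate 2 or 3), against 4.04% to 4.70% of all sites. Promoters called by limma numbered 0 to 0. The mean over the 10 genes ran from −3.25 to 4.47 and the summits from 1.5 to 3.67. By gene the difference ran from −33.9 to −16.0 for RBBP4, −24.5 to 6.42 for SAP130, −16.3 to 3.73 for SAP30, −2.99 to 4.34 for SAP30L, −7.86 to 15.4 for HDAC1, −3.05 to 11.6 for SAP18, 6.82 to 20.2 for HDAC2, 0.891 to 24.9 for SIN3A, and 1.85 to 31.1 for SIN3B. For SUDS3 it ran from 6.47 to 9.71 with SAP30-KO1 replicate 1 present, and without it no library had a summit. The HDAC2 sites ran from 41.5 to 56.2 at 29.2 kb, 41.0 to 63.8 at 36.5 kb and −24.7 to −12.9 at 23.9 kb.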
